A study of Mus musculus and Macaca nemestrina with 20 samples.

Results

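The interleukin 1 family and its receptors were read as 10 genes chosen by symbol, Il1a, Il1b, Il33, Il18, Il1r1, Il1rap, Il1rl1, Il1r2, Il1rn and Il18bp, in bulk RNA-seq of dorsal root ganglia (DRG), where the sensory neurons that innervate skin and viscera have their somata. The mouse tables held all 10 among 29766 genes, and the monkey tables held all 10, in capitals, among 35194 genes. Mouse DRG came from 7 libraries labelled ADAM17 KO, called knockout here (4 in batch 1 and 3 in batch 2), and 7 labelled ADAM17 flox, called flox (3 in batch 1 and 4 in batch 2). Monkey DRG (pig-tailed monkey, Macaca nemestrina) came from 3 libraries of SADBE-treated skin, squaric acid dibutyl ester being a contact sensitizer, and 3 of vehicle-treated control skin. The series is titled as a study of natriuretic peptide B in chronic itch. The labels used here name no Cre driver, age or sex of the mice, no SADBE dose or time, and no animal behind a library. The p-values therefore speak of how libraries varied, which may be technical in part. Batch is the labels' own word, without a statement of what a batch was.

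IL-1 alpha and IL-1 beta signal when IL1R1 binds either of them and recruits the shared co-receptor IL1RAP, which passes the signal through MYD88 and IRAK kinases to NF-kB. IL1R2 binds the same ligands but has no signalling domain and acts as a decoy, and IL1RN is a secreted antagonist that occupies IL1R1. IL-33 signals through IL1RL1 (ST2), again with IL1RAP, and IL-18 is held back by the soluble binding protein IL18BP. IL-1 beta and IL-18 are made as precursors that caspase-1 cuts in inflammasomes. ADAM17, a membrane protease that releases ectodomains from the cell surface, is known to shed IL1R2 as protein, which RNA-seq does not read. Sensory neurons carry IL1R1, and IL-1 beta is known to sensitize them.

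Library depth ran from 12.1 M to 30.8 M estimated counts in knockout mice and from 30.9 M to 52.1 M in flox mice. The gap was widest in batch 1, with 12.1 M to 14.7 M in the knockout libraries and 46.9 M to 52.1 M in the flox libraries. SADBE libraries held 9.02 M to 22.4 M and vehicle libraries 13.7 M to 27.1 M. Adam17 itself averaged 25.2 ± 6.70 CPM in knockout and 25.1 ± 5.49 CPM in flox libraries (SD, n = 7 each). A count over the whole gene does not read a deleted exon alone, so it neither checks the labels nor contradicts them, and every direction below rests on the labels. The label DRG held in both species by its markers: the sensory neuron list (Prph, Tubb3, Scn10a, Snap25, Calca) summed to 5981 to 7888 CPM in knockout and 4161 to 5846 CPM in flox libraries. In monkeys 4 of the 5 were in the table, with sums of 1085 to 1308 CPM in SADBE and 408 to 1327 CPM in vehicle libraries. Markers of other tissues were uneven among mouse libraries. Skeletal muscle markers summed to 4.65 to 1680 CPM in knockout and 14.4 to 3214 CPM in flox libraries. Haemoglobin genes summed to 1244 to 48425 CPM and 789 to 12104 CPM, and spinal cord markers to 78.5 to 529 CPM and 67.9 to 595 CPM. CPM is the count per M of effective library size, and 3 counts, the upper limit that a count of 0 allows, corresponded to 0.0518 to 0.238 CPM in mice and 0.0881 to 0.337 CPM in monkeys. Values after ± are SDs over libraries for CPM and TPM, and standard errors for log2 fold changes.

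In mouse DRG, 2 of the 10 genes rose in knockout libraries and none fell. Il1r2, the decoy receptor, was 15.1-fold higher, and Il1r1, the signalling receptor, was 2.27-fold higher. A gene was called where its Benjamini-Hochberg adjusted p over all 15654 genes tested, from edgeR's quasi-likelihood test with batch as a term, was under 0.05. Il1a did not pass the filter on low counts, so 9 genes were tested. The 2 called made 22.2% of those 9, beside 7.97% of all genes called higher and 7.51% called lower in this comparison. The median log2 fold change of the 9 was 0.05, beside -0.0078 over all genes tested. In the same edgeR test 7 of the 9 had an unadjusted p under 0.05, beside 4831 of all 15654 genes tested. In SADBE against vehicle DRG, 8 of the 10 genes passed the filter and none was called.

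**Figure D1:**
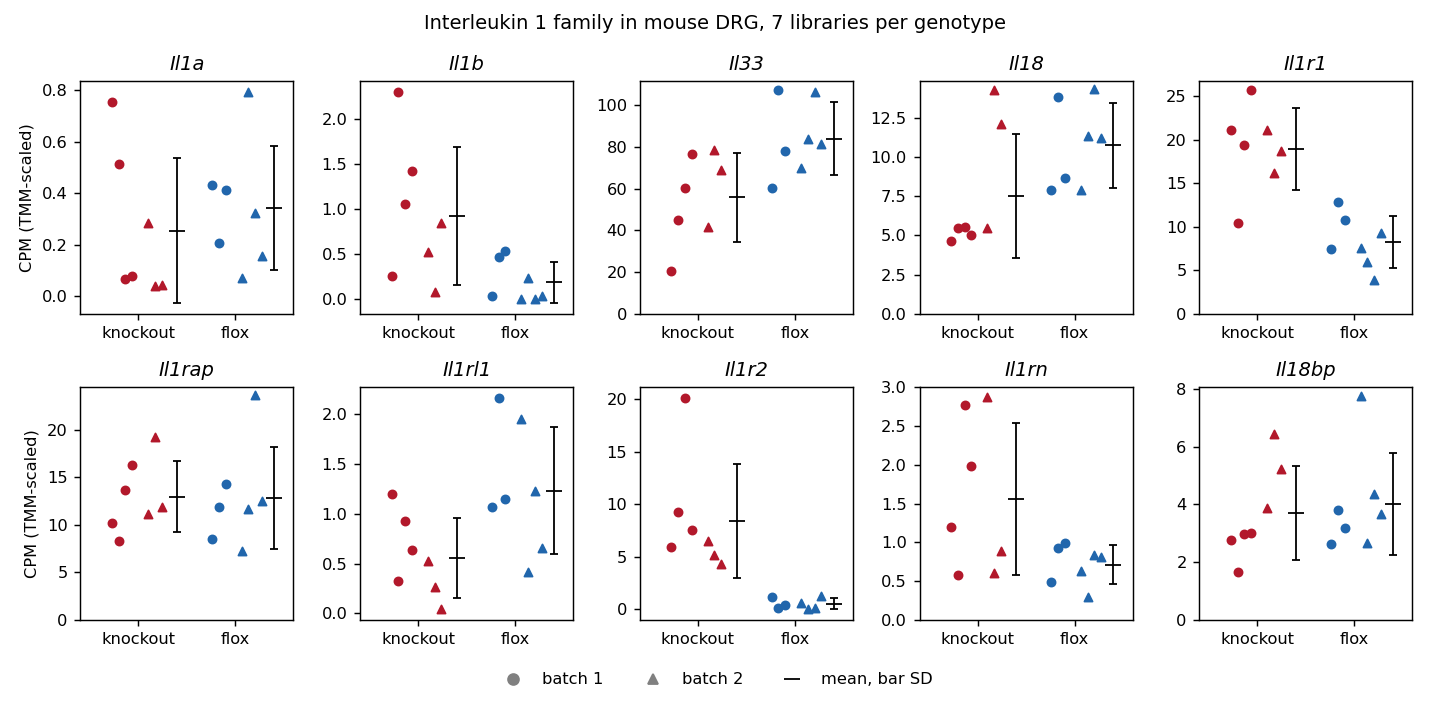
Each panel plots 1 gene, with CPM on a linear axis and a symbol per library (circles batch 1, triangles batch 2), knockout left of flox; the horizontal mark and bar are the mean and SD over 7 libraries. The knockout libraries sit between 4.25 and 20.1 CPM for Il1r2, all above the flox libraries, whose highest is 1.28 CPM; in every other panel the genotypes overlap.

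Il1r2 (ENSMUSG00000026073.13, GRCm38 chr1:40074079-40125231, plus strand) and Il1r1 (ENSMUSG00000026072.12, chr1:40225080-40317257, plus strand) are neighbours, and they are the members that were called higher. Their promoters are shown for that reason, as the 250 bases before each start annotated by RefSeq on GRCm38.p6; promoters were matched for 10 of the 10 mouse genes, 15 in all. Capitals mark the letters of a searched motif. The motifs below were searched, on both strands: GGGNNNNNCC for NF-kB, TTCNNNGAA for STAT factors and TGANTCA for AP-1.

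Il1r2 promoter, chr1:40085843-40086092, plus strand: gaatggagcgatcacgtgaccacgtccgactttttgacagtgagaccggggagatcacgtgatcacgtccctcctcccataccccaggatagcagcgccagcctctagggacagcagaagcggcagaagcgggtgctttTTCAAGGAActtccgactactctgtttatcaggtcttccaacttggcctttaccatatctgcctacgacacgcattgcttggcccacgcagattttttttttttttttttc
Il1r1 first promoter, chr1:40224830-40225079, plus strand: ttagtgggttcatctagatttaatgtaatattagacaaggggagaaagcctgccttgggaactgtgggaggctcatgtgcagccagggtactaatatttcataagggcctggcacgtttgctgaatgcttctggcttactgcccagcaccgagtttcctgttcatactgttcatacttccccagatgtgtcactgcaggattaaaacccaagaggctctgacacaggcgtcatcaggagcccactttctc
Il1r1 second promoter, chr1:40266336-40266585, plus strand: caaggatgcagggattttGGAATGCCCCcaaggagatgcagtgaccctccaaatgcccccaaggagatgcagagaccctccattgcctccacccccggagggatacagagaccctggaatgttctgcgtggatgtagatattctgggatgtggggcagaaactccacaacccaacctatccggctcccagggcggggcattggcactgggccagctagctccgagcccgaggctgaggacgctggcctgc

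The Il1r2 window held 1 STAT match, starting 111 bases before the start, and neither of the other motifs. Of 32851 mouse promoters of the same length, 7.02% held the STAT letters. Il1r1's first window held none of the searched motifs, and its second held 1 NF-kB match, on the minus strand, starting 232 bases before the start. The NF-kB letters were in 45.8% of all promoters and the AP-1 letters in 6.75%. A match is a run of letters and says nothing of binding in these ganglia.

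Il1r2 codes for the decoy that takes up IL-1 without signalling. Knockout libraries 1 to 7 read 5.90, 9.23, 20.1, 7.54, 6.51, 5.10 and 4.25 CPM of it. Flox libraries 1 to 7 had 1.11, 0.0931, 0.341, 0.591, 0, 0.0645 and 1.28 CPM. The lowest knockout library was thus above the highest flox library, and knockout 3 stood apart above the other 6. As estimated counts, 94 to 305 lay behind the knockout values and 0 to 64 behind the flox values, although the batch 1 flox libraries were the most deeply sequenced. The log2 fold change was 3.92 ± 0.70 (SE; 95% interval 2.43 to 5.41; adjusted p = 0.00192). It was 4.35 ± 0.80 in batch 1 alone (adjusted p = 0.0328), where 1.12% of genes were called higher and 0.687% lower. In batch 2 alone it was 3.46 ± 0.98 (adjusted p = 0.0435), where 7.22% of genes were called higher and 5.99% lower. Without knockout 3 the value was 3.65 (adjusted p = 0.00397). Of the 9 genes tested, Il1r2 was the only one whose genotypes did not overlap in either batch, which held for 3.25% of all genes in the higher direction and 2.25% in the lower.

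Neutrophils are among the cells known to carry IL1R2, and most of the markers read here also rose in knockout libraries. The 10 neutrophil markers summed to 1599, 1437, 5157, 2147, 1054, 710 and 1177 CPM in knockout libraries 1 to 7, and to 197, 452, 648, 105, 69.8, 132 and 77.1 CPM in flox libraries 1 to 7. As with Il1r2, the genotypes did not overlap and knockout 3 was highest. Within the flox libraries the order differed. The sum was highest in flox 3, where Il1r2 was at 0.341 CPM, and Il1r2 was highest in flox 7, at 1.28 CPM. Of the 10 markers 9 rose, beside 7.97% of all genes called higher. Among them was the calcium-binding S100a8 (589 ± 578 CPM in knockout and 64.5 ± 72.2 CPM in flox, SD, n = 7 each). The primary granule genes Mpo (57.5 ± 46.1 CPM in knockout and 5.04 ± 4.43 CPM in flox) and Elane (50 ± 44.1 CPM in knockout and 4.16 ± 2.23 CPM in flox) rose too. None of the 10 was at 0 in all libraries. Cxcr2, a chemokine receptor of mature neutrophils, averaged 29.2 ± 7.85 CPM in knockout and 23.0 ± 5.44 CPM in flox libraries and was not called (adjusted p = 0.167). The part of these cells in the Il1r2 difference was not tested. In bulk libraries more cells of a type and more RNA per cell cannot be told apart. The 8 macrophage markers, by contrast, held none that was called, with sums of 118 to 339 CPM in knockout and 164 to 253 CPM in flox libraries.

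**Figure D2:**
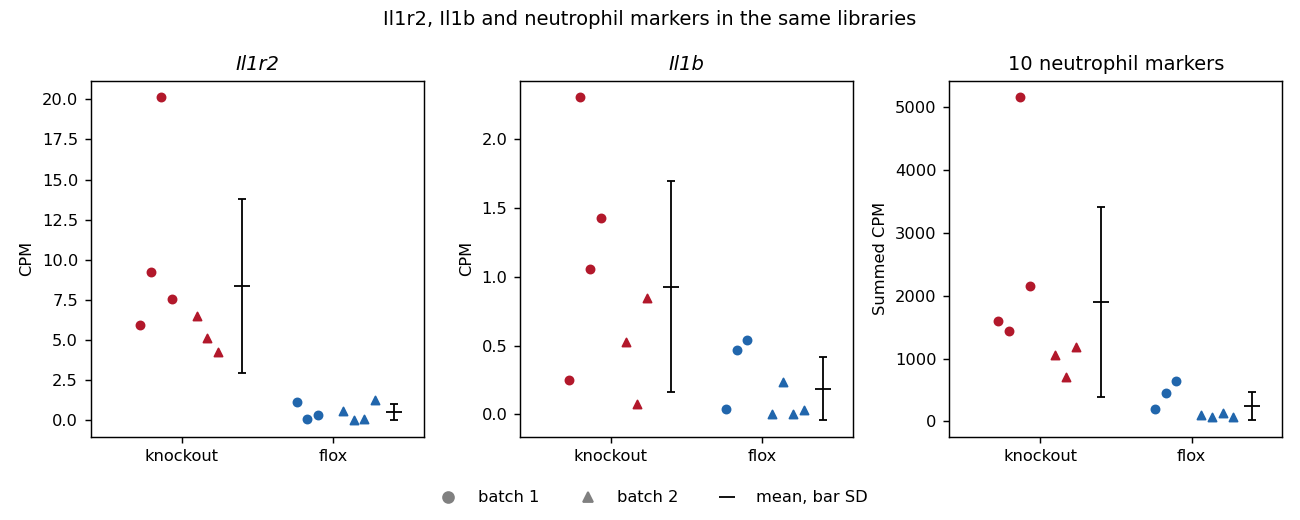
The 3 panels plot Il1r2, Il1b and the sum of 10 neutrophil markers in CPM for each mouse library (circles batch 1, triangles batch 2), knockout left of flox; marks and bars are means and SDs over 7 libraries. Il1r2 and the marker sum separate the genotypes, with knockout 3 highest in both at 20.1 and 5157 CPM, whereas Il1b overlaps and is highest in knockout 2.

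Il1r1, the receptor that signals, had 21.1, 10.4, 19.4, 25.6, 21.1, 16.2 and 18.7 CPM in knockout libraries 1 to 7. The flox libraries 1 to 7 had 7.43, 12.9, 10.7, 7.55, 5.94, 3.90 and 9.24 CPM. Knockout 2 lay below flox 2 and flox 3, and the other 6 knockout libraries lay above all flox libraries. Its log2 fold change was 1.19 ± 0.23 (95% interval 0.70 to 1.67; adjusted p = 0.00292). In batch 1 alone it was 0.85 ± 0.32 and was not called (adjusted p = 0.218), and in batch 2 alone it was 1.49 ± 0.28 (adjusted p = 0.00857). The interaction of batch and genotype, batch 2 minus batch 1, was 0.60 ± 0.44 for Il1r1 (adjusted p = 0.624). That interaction was called for none of the 9 genes tested, beside 0.658% of all genes higher and 0.371% lower. Of the 5 sensory neuron markers 3 rose, beside 7.97% of all genes called higher: Calca (log2 fold change 0.80), Tubb3 (0.59) and Prph (0.45). Scn10a (0.10, adjusted p = 0.820, edgeR) and Snap25 (0.34, adjusted p = 0.181) were not called. The part of sensory neurons in the Il1r1 difference was not tested.

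Il1rap (chr16:26581704-26730117, plus strand), the co-receptor that IL1R1 and IL1RL1 share, did not change detectably. It ranged from 8.33 to 19.2 CPM around a median of 11.8 CPM in knockout libraries, and from 7.27 to 23.7 CPM around a median of 11.8 CPM in flox libraries. The log2 fold change was 0.05 ± 0.24 with a 95% interval of -0.47 to 0.57 (adjusted p = 0.914). An antisense gene, Gm20319, overlaps its exons. No source used here gives the strand setting of the counts, so reads from the shared bases cannot be told apart.

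**Figure D3:**
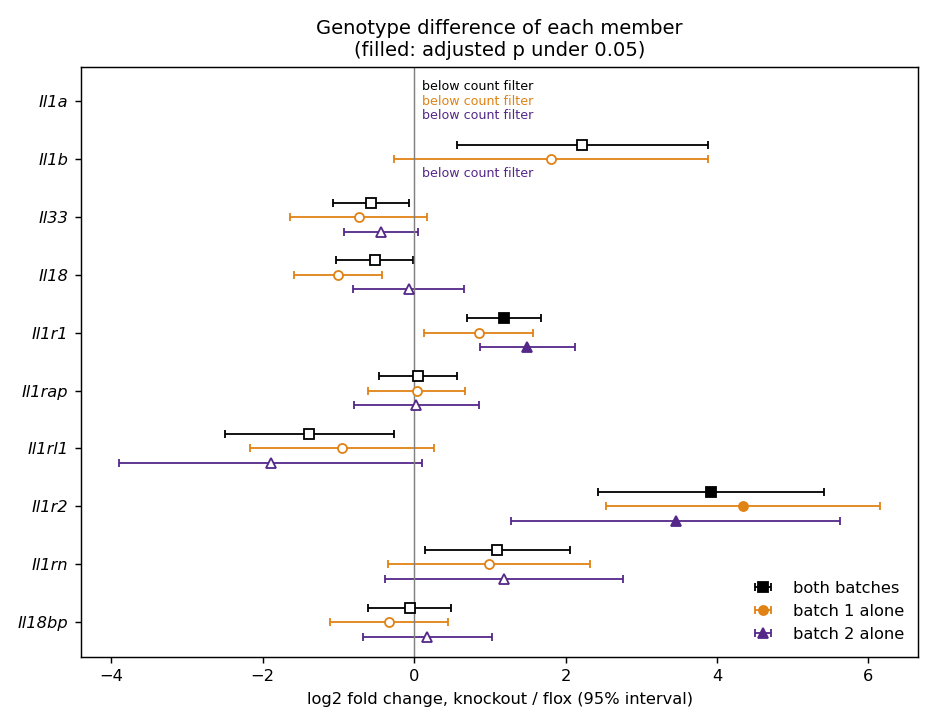
Points are log2 fold changes of knockout over flox and bars their 95% intervals, for each gene in both batches (black), batch 1 (orange) and batch 2 (purple); filled symbols have an adjusted p under 0.05. Il1r2 is filled in all 3 fits, at 3.92, 4.35 and 3.46; Il1r1 is filled in both batches together and in batch 2, and all other symbols are open.

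The 2 genes lie in a receptor cluster of 6 protein-coding genes on chromosome 1, in the order Il1r2, Il1r1, Il1rl2, Il1rl1, Il18r1 and Il18rap, all on the plus strand within 477.6 kb. Only the first pair was called. Il1rl2, the IL-36 receptor, averaged 0.563 ± 0.419 CPM in knockout and 1.79 ± 0.750 CPM in flox libraries, with a log2 fold change of -1.53 ± 0.54 (adjusted p = 0.0661). Il1rl1 had -1.39 ± 0.53 (adjusted p = 0.0853). Il18r1, the IL-18 receptor chain that binds the ligand, had 0.52 ± 0.81 (adjusted p = 0.702), and its partner chain Il18rap had 1.32 ± 0.64 (adjusted p = 0.172). The estimates thus ran in both directions along the cluster.

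**Figure D4:**
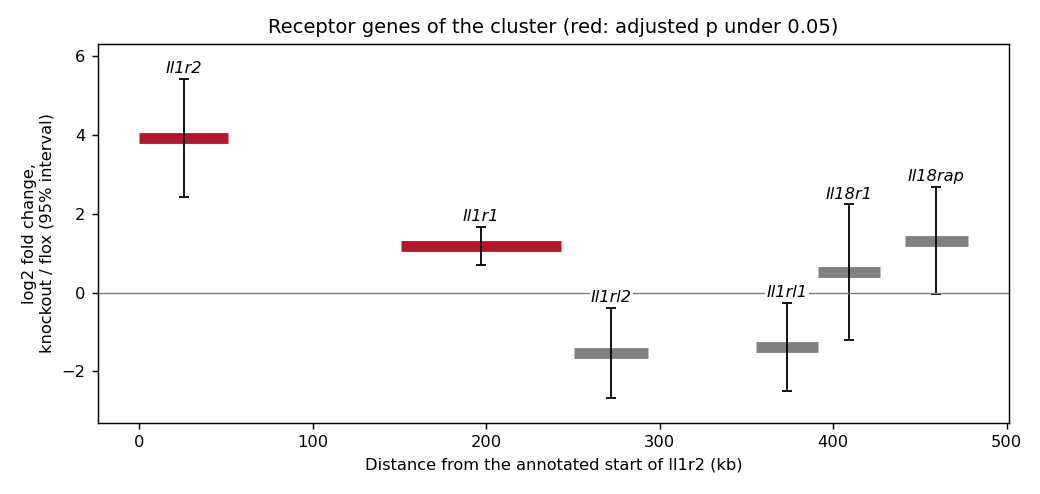
Horizontal bars span each gene of the cluster by its distance in kb from the annotated start of Il1r2, at the height of its log2 fold change of knockout over flox; vertical bars are 95% intervals, and red marks an adjusted p under 0.05. Il1r2 at 3.92 and Il1r1 at 1.19 are red, Il1rl2 and Il1rl1 lie below 0, and Il18r1 and Il18rap lie above 0 with intervals that cross it.

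Among the ligands, Il1a (ENSMUSG00000027399.1, chr2:129299610-129309972, minus strand) was close to the limit of detection. Knockout libraries held 1 to 12 estimated counts of it and flox libraries 2 to 27, which came to 0.0381 to 0.754 CPM in knockout and 0.0696 to 0.795 CPM in flox libraries. The groups overlapped. Fitted without the filter on low counts, its log2 fold change was -0.69 ± 0.78 (95% interval -2.33 to 0.95; adjusted p = 0.618), an interval that spans changes in both directions. Gm14023 overlaps exons of Il1a on the opposite strand, and reads from the shared bases cannot be told apart.

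Il1b (ENSMUSG00000027398.13, chr2:129364570-129371139, minus strand), the IL-1 that inflammasomes mature, was also scarce. Knockout libraries 1 to 7 had 0.251, 2.31, 1.06, 1.43, 0.526, 0.0761 and 0.849 CPM. Flox libraries 1 to 7 had 0.0346, 0.466, 0.538, 0, 0.235, 0 and 0.0311 CPM. Knockout 2, 3, 4 and 7 lay above every flox library and the other 3 within the flox range. Behind these values lay 2 to 36 estimated counts in knockout libraries and 0 to 30 in flox libraries. The fitted log2 fold change was 2.22 ± 0.78 (95% interval 0.57 to 3.88), and it missed the threshold (adjusted p = 0.0649). In batch 1 alone edgeR gave 1.81 ± 0.92 and did not call it (adjusted p = 0.367). In batch 2 alone it did not pass the filter on low counts. DESeq2's Wald test on the same counts called it (adjusted p = 0.0318), as did limma on the log2 of deposited TPM + 1 (adjusted p = 0.0296). For Il1b, 1 CPM corresponded to 2.34 TPM in knockout 1 and 5.35 TPM in flox 7. The median was 0.989 TPM over the 12 libraries with a count. Neutrophils and macrophages are both known sources of Il1b; the marker sums given for Il1r2 stand beside it too, and their part was not tested. The antisense gene Il1bos overlaps its exons, so reads from the shared bases cannot be told apart.

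Il1rn (chr2:24336853-24351494, plus strand), the antagonist, averaged 1.56 ± 0.99 CPM in knockout and 0.710 ± 0.25 CPM in flox libraries (SD, n = 7 each). Single libraries had 1.19, 0.577, 2.77, 1.98, 2.87, 0.609 and 0.892 CPM in knockout 1 to 7, against 0.484, 0.931, 0.987, 0.626, 0.294, 0.838 and 0.809 CPM in flox 1 to 7. Knockout 1, 3, 4 and 5 lay above all flox libraries and the other 3 lay among them. The log2 fold change was 1.10 ± 0.45 (95% interval 0.15 to 2.05; adjusted p = 0.109), with 0.99 in batch 1 and 1.19 in batch 2. Without knockout 5 it was 0.69 (adjusted p = 0.379).

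Il33 (chr19:29925114-29960718, plus strand), a nuclear cytokine released by damaged stromal and barrier cells, was the most abundant member per length in mice. It had 20.3, 44.9, 60.1, 76.7, 41.8, 78.6 and 68.9 CPM in knockout libraries 1 to 7, against 60.5, 107, 78.1, 70.0, 84.0, 106 and 81.5 CPM in flox libraries 1 to 7. Knockout 1, 2, 3 and 5 lay below every flox library, and the rest lay within the flox range. Its log2 fold change was -0.57 ± 0.24 (95% interval -1.07 to -0.07; adjusted p = 0.117). Fibroblasts are one known source. Of the 5 fibroblast markers 4 fell, with sums of 1283 to 3114 CPM in knockout and 2661 to 5198 CPM in flox libraries. Of the Schwann cell markers 4 of 4 fell. These counts stand beside 7.51% of all genes called lower. The part of these cells was not tested.

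Il1rl1 (chr1:40429570-40465415, plus strand), the IL-33 receptor, is made as a membrane form and as a shorter soluble form that binds IL-33 without signalling. Its levels were 1.19, 0.321, 0.924, 0.635, 0.526, 0.266 and 0.0425 CPM in knockout libraries 1 to 7, against 1.07, 2.16, 1.15, 1.95, 0.412, 1.23 and 0.653 CPM in flox libraries 1 to 7. The log2 fold change on counts was -1.39 ± 0.53 (adjusted p = 0.0853). On deposited TPM, limma gave -0.05 on the log2(TPM + 1) scale (adjusted p = 0.839) and -0.37 on the log2(TPM + 0.1) scale (adjusted p = 0.626), so the smaller pseudocount left most of the gap to the counts. The 2 units differed most in 2 libraries: 1 CPM corresponded to 0.751 TPM in knockout 1 and 1.31 TPM in knockout 6, against 0.167 to 0.274 TPM in the other 12 libraries. TPM divides by transcript length and CPM does not. These 2 libraries held 18.6 and 6.54 estimated counts of Il1rl1. Mast cells are known to carry IL1RL1. Of the 4 mast cell markers tested, Cma1 and Mcpt4 fell, beside 7.51% of all genes called lower. The others were not called: Cpa3 had a log2 fold change of -1.31 (adjusted p = 0.134, edgeR) and Fcer1a 1.18 (adjusted p = 0.459). Sums over the list were 0.761 to 2.71 CPM in knockout and 1.09 to 15.2 CPM in flox libraries, which overlapped. The part of mast cells was not tested.

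Il18 (chr9:50554827-50581840, plus strand), activated by caspase-1 like IL-1 beta, was read in each batch apart. In batch 1, knockout libraries 1 to 4 had 4.65, 5.45, 5.55 and 5.00 CPM, against 7.92, 13.9 and 8.66 CPM in flox libraries 1 to 3. All 4 knockout libraries there lay below all 3 flox libraries, though the share of all genes that did so in batch 1 was not counted. Batch 2 had 5.46, 14.3 and 12.1 CPM in knockout libraries 5 to 7, against 7.89, 11.3, 14.3 and 11.2 CPM in flox libraries 4 to 7, and the genotypes overlapped. The fitted log2 fold change was -0.52 ± 0.24 in both batches (adjusted p = 0.154), -1.01 ± 0.26 in batch 1 (adjusted p = 0.0868) and -0.07 ± 0.33 in batch 2 (adjusted p = 0.911). The test of the batch difference itself gave 0.90 ± 0.44 (unadjusted p = 0.0563, adjusted p = 0.382, edgeR), which was not called. Knockout 6 and 7 had the highest Il18 values of the knockout libraries. Leaving both out kept knockout 5 as the only knockout library of batch 2. Fitted so in edgeR, the Il18 log2 fold change was -0.99. Leaving out the highest knockout values lowers it by that choice alone, so nothing is drawn from it. With flox 2 alone left out it was -0.34 (adjusted p = 0.336).

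Il18bp (chr7:102014885-102018690, minus strand), the secreted inhibitor of IL-18, did not differ detectably in mice. It ranged from 1.67 to 6.43 CPM in knockout and from 2.61 to 7.76 CPM in flox libraries, with a log2 fold change of -0.06 ± 0.26 (95% interval -0.61 to 0.49; adjusted p = 0.897). Its exons overlap those of Numa1 on the opposite strand, and reads from the shared bases cannot be told apart.

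Levels can be ordered per length by the deposited TPM. In knockout libraries the order of mean TPM was Il33 (25.6 ± 8.46), Il18 (15.0 ± 7.27), Il1r2 (8.47 ± 5.39), Il1r1 (4.86 ± 1.36), Il1rap (3.71 ± 1.11), Il18bp (3.29 ± 1.37), Il1rn (1.06 ± 0.742), Il1b (0.908 ± 0.687), Il1rl1 (0.259 ± 0.301) and Il1a (0.161 ± 0.180). Flox libraries gave Il33 (39.3 ± 8.75), Il18 (22.0 ± 6.08), Il1rap (3.75 ± 1.64), Il18bp (3.60 ± 1.61), Il1r1 (1.95 ± 0.529), Il1r2 (0.638 ± 0.782), Il1rn (0.570 ± 0.316), Il1rl1 (0.271 ± 0.117), Il1a (0.218 ± 0.175) and Il1b (0.193 ± 0.213). Il33 was above Il18 in 7 of 7 libraries of either genotype. Il1r2 TPM was above Il1r1 TPM in 6 of 7 knockout libraries, and Il1r1 TPM above Il1r2 TPM in 7 of 7 flox libraries. Among neighbours in the knockout order, Il33 over Il18 and Il18bp over Il1rn held in 7 of 7 libraries, and each of the other pairs turned round in at least 1 library: Il18 over Il1r2, Il1r2 over Il1r1 and Il1r1 over Il1rap held in 6, and the rest in 4 or 5. In the flox order, Il18 over Il1rap, Il18bp over Il1r1 and Il1r1 over Il1r2 also held in 7 of 7 libraries. Il1rn over Il1rl1 held in 6, and the other flox pairs held in 3 or 4. No test of these orders was made.

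The genes whose pattern was most like that of Il1r2 were Togaram2 (Pearson r 0.948), Gadd45g (0.929), Ggt5 (0.925), Pim3 (0.922) and Sla (0.918). The measure was the correlation of log2 CPM, centred within batch, over the 14 mouse libraries, which share the genotype difference itself. Gadd45g averaged 70.0 ± 17.6 CPM in knockout and 25.4 ± 8.31 CPM in flox libraries. Pim3, which codes for a serine/threonine kinase, averaged 117 ± 54.1 CPM in knockout and 38.0 ± 14.5 CPM in flox libraries. All 5 rose in knockout libraries, but choosing them by likeness to Il1r2 largely fixed that direction, so it adds no evidence.

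Downstream of the receptors, 1 of 15 signalling genes rose and 1 fell, beside 7.97% of all genes called higher and 7.51% called lower, so the list as a whole did not stand above that background. Myd88, the adaptor shared by the IL-1 receptors and Toll-like receptors, averaged 22.9 ± 3.86 CPM in knockout and 12.7 ± 2.08 CPM in flox libraries (log2 fold change 0.85 ± 0.14, adjusted p = 0.00115). Nfkb1, which codes for the p105 and p50 subunit, averaged 10.9 ± 4.00 CPM in knockout and 15.5 ± 4.05 CPM in flox libraries (log2 fold change -0.67 ± 0.17, adjusted p = 0.0146). Tollip, an inhibitor of IRAK signalling, had 0.49 ± 0.17 and was not called (adjusted p = 0.0582). The median of the 15 was 0.05, beside -0.0078 over all genes.

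Among genes known to be induced by IL-1 through NF-kB, 2 of 10 tested rose and none fell, beside the same 7.97% and 7.51% of all genes. Nfkbiz, an inducible nuclear I-kappa-B protein, averaged 6.90 ± 2.38 CPM in knockout and 2.73 ± 1.03 CPM in flox libraries (log2 fold change 1.27 ± 0.26, adjusted p = 0.00488). Il6 averaged 2.40 ± 0.569 CPM in knockout and 0.479 ± 0.430 CPM in flox libraries (2.30 ± 0.67, adjusted p = 0.0306). The chemokine Ccl2 had -0.84 ± 0.37 and was not called (adjusted p = 0.138), and the median of the 10 was 0.20, beside -0.0078 over all genes. These genes answer to other inputs as well, and IL-1 signalling was not measured. Marker sums that separated the genotypes stand beside the called genes of the signalling, induced and inflammasome lists as well. Neutrophil and sensory neuron sums were higher in knockout libraries. Schwann cell sums were lower, at 1458 to 3228 CPM in knockout and 3398 to 6398 CPM in flox libraries. Myd88, Nfkbiz, Il6 and Casp1 rose and Nfkb1 fell. The part of these cells was not tested.

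Of 7 inflammasome genes tested, Casp1, which codes for the protease that matures IL-1 beta and IL-18, rose, and none fell. That 1 call stands beside 7.97% of all genes called higher and 7.51% called lower. Casp1 averaged 12.7 ± 1.51 CPM in knockout and 7.43 ± 1.53 CPM in flox libraries (log2 fold change 0.76 ± 0.16, adjusted p = 0.00501). Nek7, an NLRP3 partner, had 0.29 ± 0.14 (adjusted p = 0.167) and Gsdmd, the pore former of pyroptosis, -0.32 ± 0.23 (adjusted p = 0.369). The median of the 7 was 0.22, beside -0.0078 over all genes. Nlrp3 did not pass the filter on low counts. None of 6 tested genes among the other ligands and receptors of the family was called; after Il1rl2 and Il18rap the lowest p was that of Sigirr, a receptor that damps signalling, with 0.43 ± 0.29 (adjusted p = 0.330). Il36a, Il36b and Il1f10 had no count in any mouse library.

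In monkeys the same 10 genes were compared between DRG of SADBE-treated skin and DRG of vehicle-treated skin. No member was called, and neither was any other gene: 0% of 17988 genes tested were called higher and 0% lower by edgeR, with 550 at an unadjusted p under 0.05 and 25 called by DESeq2, none of them a member. SADBE 2 and SADBE 3 were far closer to each other than other pairs, with a chi-square per gene of 29.0 against 297 to 559 for the other 5 pairs within a group, where sampling noise alone gives about 1. A value above sampling noise cannot tell whether they came from separate animals. SADBE 2 and SADBE 3 were kept as separate libraries, and counting them as 1 called no member either. With 3 libraries against 3 the intervals were wide.

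IL18BP was the one member whose monkey groups did not overlap. It had 8.85, 13.0 and 15.2 CPM in SADBE libraries 1 to 3, against 23.4, 33.4 and 24.0 CPM in vehicle libraries 1 to 3. Every SADBE library was below every vehicle library, as was so for 4.56% of all genes tested, with 4.63% in the opposite direction. The log2 fold change was -1.13 ± 0.43 (95% interval -2.10 to -0.15; unadjusted p = 0.0280, adjusted p = 0.999, edgeR).

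IL1R2 stood at 0.196, 0.674 and 1.63 CPM in SADBE libraries, against 6.73, 1.02 and 0.787 CPM in vehicle libraries. Vehicle 1 was the highest, and it also had the highest sum of the 7 neutrophil markers in the table: the sums were 11.6, 103 and 238 CPM in SADBE 1 to 3 and 1254, 21.4 and 154 CPM in vehicle 1 to 3. Its log2 fold change was -1.77 ± 1.08, without vehicle 1 it was -0.12, and without SADBE 3 it was -2.82. The part of neutrophils in these values was not tested. IL1R1 had 2.79, 30.7 and 21.4 CPM in SADBE libraries, against 17.6, 11.8 and 10.2 CPM in vehicle libraries, with SADBE 1 the lowest of the 6 and the other 2 SADBE libraries the highest (0.46 ± 0.75; 0.97 without SADBE 1 and -0.16 without SADBE 2).

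**Figure D5:**
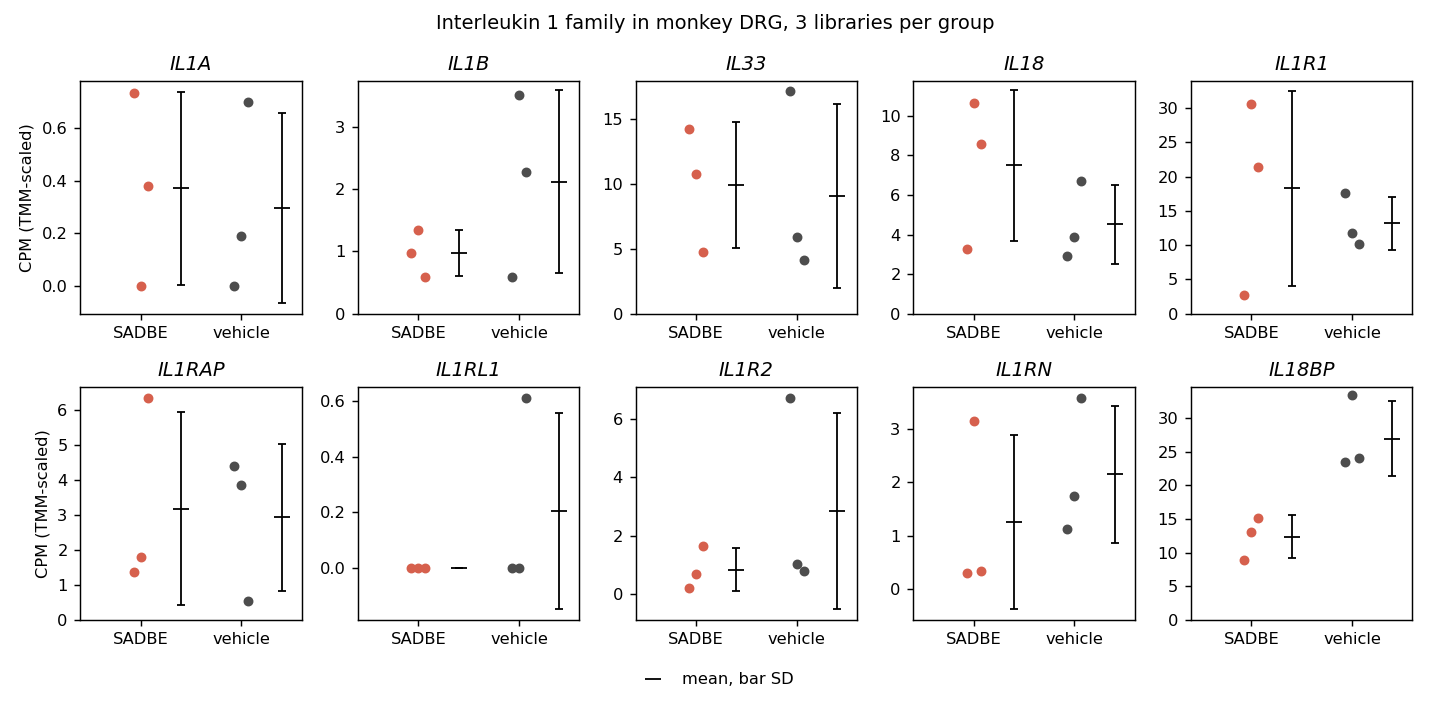
Each panel plots 1 gene in monkey DRG, with CPM on a linear axis and a point per library, SADBE left of vehicle; marks and bars are means and SDs over 3 libraries. IL18BP is the one panel without overlap, with SADBE at 8.85 to 15.2 CPM and vehicle at 23.4 to 33.4 CPM; IL1RL1 has a count in vehicle 3 alone.

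The ligand IL1B had 0.978, 1.35 and 0.598 CPM in SADBE libraries, against 0.588, 3.51 and 2.27 CPM in vehicle libraries (log2 fold change -1.13 ± 0.82; -1.59 without vehicle 1 and -0.54 without vehicle 2). IL18 had 3.28, 10.7 and 8.58 CPM in SADBE libraries, against 2.91, 3.89 and 6.73 CPM in vehicle libraries (0.74 ± 0.62; 0.38 without SADBE 2 and 1.12 without vehicle 3). Groups overlapped for both. They overlapped too for IL33, at 4.73 to 14.3 CPM in SADBE and 4.11 to 17.2 CPM in vehicle libraries (0.13 ± 0.67). IL1RAP had 1.37 to 6.36 CPM in SADBE and 0.525 to 4.41 CPM in vehicle libraries (0.11 ± 0.89). The sign of both values turned with single libraries left out, IL33 running from -0.25 without vehicle 3 to 0.98 without vehicle 1 and IL1RAP from -0.93 without SADBE 3 to 0.52 without vehicle 1. The antagonist IL1RN had 0.293 to 3.15 CPM in SADBE and 1.12 to 3.58 CPM in vehicle libraries (-0.82 ± 1.04), a value that ran from -2.78 without SADBE 2 to -0.26 without vehicle 3. IL1A, with 0 to 15 estimated counts in SADBE and 0 to 8 in vehicle libraries, and IL1RL1, with none in SADBE 1 to 3 and 7 in vehicle 3 alone, did not pass the filter on low counts. Fitted without that filter, IL1A had a log2 fold change of 0.50 ± 1.47 (adjusted p = 0.984, edgeR), and IL1RL1, for which no fold is given since all SADBE libraries were at 0, had an unadjusted p of 0.0842 (adjusted p = 0.917). The order of mean TPM in SADBE libraries was IL18 (13.3 ± 5.71), IL18BP (8.37 ± 1.75), IL33 (6.35 ± 3.42), IL1R1 (5.28 ± 4.10), IL1B (2.45 ± 0.904), IL1RAP (1.51 ± 1.21), IL1RN (1.30 ± 1.66), IL1R2 (0.918 ± 0.786), IL1A (0.326 ± 0.334) and IL1RL1 (0). Vehicle libraries gave IL18BP (18.6 ± 7.44), IL18 (7.76 ± 2.75), IL33 (5.71 ± 4.40), IL1B (5.50 ± 4.47), IL1R1 (4.15 ± 1.27), IL1R2 (3.14 ± 3.62), IL1RN (2.09 ± 0.957), IL1RAP (1.47 ± 1.09), IL1A (0.225 ± 0.245) and IL1RL1 (0.148 ± 0.256). IL18 TPM was above IL18BP TPM in 3 of 3 SADBE libraries, and IL18BP TPM above IL18 TPM in 3 of 3 vehicle libraries. The other neighbours in either order held in 1 or 2 of 3 libraries.

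None of the pathway genes was called in monkeys: 0 of 3 other family genes, 0 of 6 inflammasome genes, 0 of 14 signalling genes and 0 of 9 NF-kB-induced genes. The lowest p belonged to SOD2, mitochondrial superoxide dismutase, which averaged 10.5 ± 2.70 CPM in SADBE and 47.4 ± 23.4 CPM in vehicle libraries (log2 fold change -2.18 ± 0.52; unadjusted p = 0.00255, adjusted p = 0.999, edgeR). TNFAIP3, the A20 inhibitor of NF-kB, had -1.66 ± 0.59, NFKBIA, the I-kappa-B alpha inhibitor, -0.83 ± 0.45, NFKB1 -1.20 ± 0.51, MYD88 -0.83 ± 0.43 and RELA -0.73 ± 0.58. The medians were -0.35 over the 9 induced genes and -0.15 over the 14 signalling genes, beside -0.0077 over all genes tested. Of the inflammasome genes, AIM2 had 0.40 ± 0.43, NLRP3 0.56 ± 0.62 and NLRC4 0.79 ± 1.00, and the median of the 6 was 0.32. IL18R1, IL1RAPL1 and SIGIRR, the 3 other family genes tested, had 0.33 ± 0.56, 0.20 ± 1.05 and 0.02 ± 0.66.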

How the data were processed

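Total RNA of fresh frozen DRG was sequenced, per the labels' protocols, and quantified with kallisto against GRCm38, per the submitters' processing notes; for the monkeys no transcriptome is named. The authors deposited estimated counts per gene, summed over transcripts and not whole where transcripts share reads, and deposited TPM, whose mouse columns sum to between 600967 and 979307. A row that names no gene (0.0785% to 0.186% of mouse counts) was left out. Estimated counts were rounded and tested in R 4.3.3 with edgeR 4.0.16 (filterByExpr with minimum count 10 and total 15, TMM, robust quasi-likelihood fit, batch as a term in mice), with Benjamini-Hochberg adjustment over all genes tested. The edgeR fit was tested on simulated counts with known changes. Standard errors come from the F statistic, and CPM from TMM-scaled library sizes. Alternatives used DESeq2 1.42.0, limma 3.58.1 and left-out libraries. Floors cover counting error only. The text names all 10 members, the 3 genes with the lowest p of each pathway list in each species, the 5 genes most correlated with the member of lowest p, and cell type markers by list. Members, lists and tests were chosen with earlier results of these data known. Gene positions come from GENCODE M21.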

Additional observations from a re-analysis of the deposited data

Results flagged for a closer look

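Within a genotype, a library was marked when its distance to the nearest other library was large for the range of the 7 (Dixon's test at 95%). Of 20 groups tested 3 were marked, and chance marks about 1 in 20. Il1r2 stood at 20.1 CPM in knockout 3, with the next knockout library at 9.23 CPM; the neutrophil marker sum was also highest in knockout 3. Il1rap stood at 23.7 CPM in flox 6, with the next flox library at 14.3 CPM. Il18bp stood at 7.76 CPM in flox 4, with the next flox library at 4.35 CPM.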

How the results depend on the processing

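Il1r2 kept its direction and its call in 26 of 26 alternatives (adjusted p 7.93e-06 to 0.0435), and Il1r1 in 25 of 26, the exception being batch 1 alone. Members called, 2 as reported, were 4 with DESeq2 (Il1b and Il1rl1 added; adjusted p = 0.0318 and 0.0461), 5 with limma on TPM rescaled to a common sum (Il1b, Il33 and Il18 added; adjusted p = 0.0354, 0.0344 and 0.0474) and 1 in batch 1 alone. Il33 was also called with a replicate block (adjusted p = 0.0186) and Il1b without flox 5 (adjusted p = 0.0440). Genes called in mice, 2423 as reported, were 564 without the batch term, 273 in batch 1 alone and 1587 (without knockout 5) to 3108 with 1 library left out; interaction calls, 161, ran from 50 to 445 with 1 left out. In monkeys DESeq2 called 25 genes. Log2 fold changes near 0 changed sign: Il18bp was 0.0444 with voom, 0.17 in batch 2 alone and -0.17 to 0.0941 with 1 library left out; Il1rap was -0.0082 on rescaled TPM, -0.0473 without knockout 6 and 7 and -0.0755 to 0.23 with 1 left out; IL1R1 was -0.23 with voom, -0.0819 on log2(TPM + 0.1) and -0.16 to 0.97 with 1 left out; IL33 ran from -0.25 to 0.98 and IL1RAP from -0.93 to 0.52. The cause was not tested. Replicate numbers did not pair the samples: same-numbered libraries correlated at -0.13 to 0.15 in mice and -0.31 to 0.23 in monkeys, and the same-numbered library was the best match for 2 of 7 knockout and 1 of 3 SADBE libraries. With the replicate block Il1rap was -0.13, Il18bp 0.0886 and IL1RAP -0.0681. Il1a, Il1b, Il1rn and Il1rl1 rest on few counts, which limits their precision.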
